A study of Mus musculus with 99 samples.

Results

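The 38 genes described here encode the extracellular part of Wnt signalling and were taken by name from the 55341 gene names of the RNA-seq count tables: the 19 Wnt ligands, the 10 Frizzled (Fzd) receptors, and 9 secreted inhibitors, Dkk1, Dkk2, Dkk3, Sfrp1, Sfrp2, Sfrp4, Sfrp5, Frzb and Wif1. All 38 names were found, each standing for a single gene model. The data came from mouse embryonic stem cells (ESCs) that carried ROSA26::creERT2 and were RING1A-/-; RING1B fl/fl (Parental), from puromycin-selected derivatives that expressed tagged RING1B WT or RING1B I53S from a vector, and from a separate ROSA26:creERT2 Eed fl/fl ESC line. RING1A and RING1B are the alternative ubiquitin ligase subunits of Polycomb repressive complex 1 (PRC1), I53S is a substitution that makes RING1B catalytically inactive, and EED is a core subunit of Polycomb repressive complex 2 (PRC2). Cells received 4-hydroxytamoxifen (+OHT, 0.5 µM), which activates Cre, or ethanol (-OHT), for 72 h, in serum with LIF and inhibitors of GSK3β and MEK1/2. All groups therefore carried creERT2 and grew with a GSK3β inhibitor, an agent that activates β-catenin downstream of the Wnt receptors. RNA-seq had 2 replicates in each of 8 groups, 16 libraries in all. ChIP-seq against 12 antibodies gave 69 libraries with a stated condition, in the RING1B lines and in derivatives with a Cas9 knockout of MTF2 (MTF2 KO), mostly 1 library per condition.

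Wnt proteins are secreted, lipid-modified ligands that bind Frizzled receptors together with LRP5 or LRP6, which stabilises β-catenin, or act through β-catenin-independent branches. DKK1 blocks the LRP coreceptor, and the SFRP family, FRZB and WIF1 bind Wnt ligands outside the cell. In ESCs, Wnt signalling supports self-renewal, and many genes for Wnt ligands carry Polycomb marks: H2AK119ub1 deposited by PRC1 and H3K27me3 deposited by PRC2.

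Library totals ranged from 8140106 to 12743460 counts in the 12 Parental, RING1B WT and RING1B I53S libraries and from 6957248 to 9443814 in the 4 Eed fl/fl libraries. The Eed fl/fl libraries stood apart: 43762 to 46757 gene names had at least 1 count in them, against 23578 to 28032 in the other 12, so they were fitted separately. Rnf2, which encodes RING1B, was at 191 and 232 CPM (counts scaled to the library total) in the -OHT Parental libraries and at 156 and 176 CPM in the +OHT libraries (log2 fold change -0.55 ± 0.20 (SE), n = 2 and 2, adjusted p = 0.035), a gene-level count that includes reads outside the deleted part. Eed was at 219 and 172 CPM in the -OHT and at 64.3 and 51.2 CPM in the +OHT Eed fl/fl libraries, which did not overlap (log2 fold change -1.95 ± 0.32, adjusted p = 0.077). The summed level of 8 pluripotency markers was 4898 to 5809 CPM in -OHT and 2971 to 3021 CPM in +OHT Parental cells. Markers of other cell types rose beside the genes below: 8 extraembryonic endoderm markers summed to 2.79 to 3.53 CPM in -OHT Parental cells, with Gata6, Sox7 and Foxa2 at 0, and to 53.7 to 55.4 CPM in +OHT, with none at 0, and 7 of the 8 were called higher. Trophoblast markers went from 69.3 to 84.4 CPM up to 396 to 412 CPM (6 of 8 called), mesoderm markers from 2.51 to 2.79 CPM up to 28.2 to 30.8 CPM (6 of 8), neuroectoderm markers from 19.2 to 25.9 CPM up to 66.7 to 71.3 CPM (4 of 8), and fibroblast markers from 10.7 to 13.5 CPM up to 48.2 to 52.6 CPM (2 of 8, with Col3a1, Dcn, Lum and S100a4 at 0 in +OHT). The numbers of markers tested, in the same order from extraembryonic endoderm to fibroblast, were 7, 7, 7, 6 and 3. The part of these markers in the results below was not tested, and in such bulk samples more cells of a type and more RNA per cell cannot be told apart. No source says whether replicates came from separate cultures, so p-values measure only the spread between these libraries.

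In untreated (-OHT) Parental cells the receptors and a few inhibitors were expressed and most ligands were not. Levels per transcript length (TPM) reached 1 in 4 of 19 ligands, 7 of 10 receptors and 5 of 9 inhibitors, 16 of 38 genes in all (42.1%), against 57.5% of 21923 protein-coding names. The median level was 0.213 TPM for ligands, 2.96 TPM for receptors and 1.68 TPM for inhibitors, against 2.66 TPM for all protein-coding names. Sfrp1, which binds Wnt ligands, stood first at 59.4 TPM, followed by the receptors Fzd5 (24.5 TPM) and Fzd10 (20.2 TPM), the ligand Wnt5b (12.7 TPM), Fzd7 (10.0 TPM), and the inhibitors Dkk3 (8.95 TPM) and Sfrp2 (8.58 TPM). Wnt1, Wnt2, Wnt3a, Wnt9b and Wnt10b had 0 counts in both -OHT Parental libraries.

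**Figure D1:**
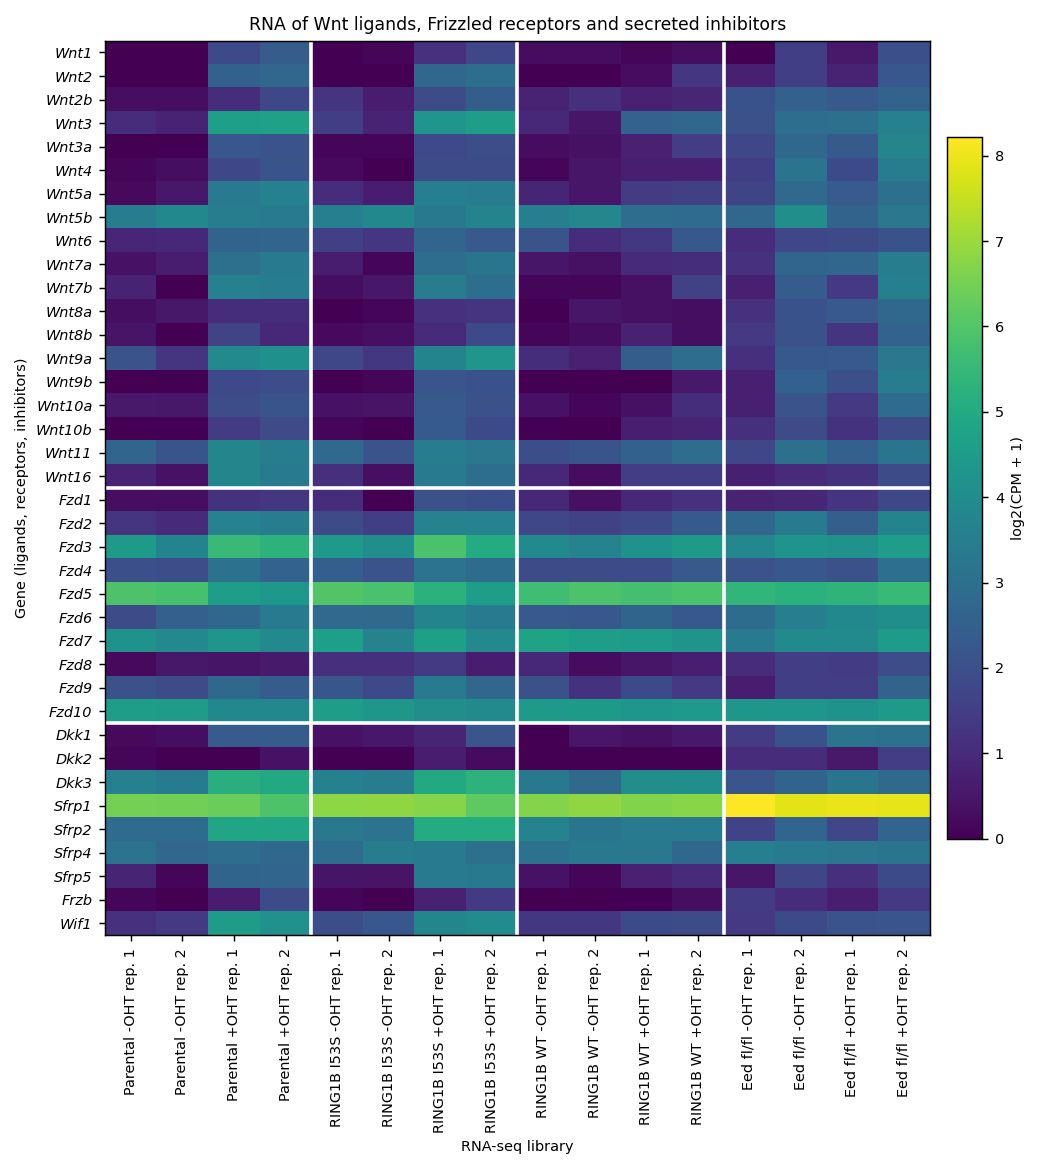
Level of each of the 38 genes (rows, by role) in each of the 16 RNA-seq libraries (columns), as log2 of CPM plus 1 on a colour scale. Most ligand genes are near 0 in the -OHT Parental, RING1B I53S and RING1B WT libraries and higher in the +OHT Parental and RING1B I53S libraries, whereas Sfrp1 is high in all 16 (59.6 to 297 CPM).

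Removal of RING1B from RING1A-/- cells asks what these genes do without PRC1. Genes were called when edgeR's quasi-likelihood test gave a Benjamini-Hochberg adjusted p under 0.05 and a log2 fold change of at least 1.5 in size. Groups described as apart had every library of one above every library of the other, which is a description and not a test. With 2 libraries per group, genes can be apart without a call. Without OHT, 14 of the 38 genes were apart between RING1B WT and Parental cells and 14 between RING1B I53S and Parental cells, with 0 called. The share over all names was not counted, so these counts are not read as a difference between the lines. In Parental cells 22 of the 38 genes were called higher with OHT, in a comparison in which 15.1% of 18154 tested names were called higher, and 1 was called lower, against 1.83% of all. The 22 were 16 of 19 ligands, 1 of 10 receptors and 5 of 9 inhibitors. The median log2 fold change was 2.55 over the 37 of these genes that were tested (Dkk2 had too few counts) and 0.03 over all tested names. By role it was 4.09 for ligands, 0.73 for receptors and 2.58 for inhibitors.

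Among the ligands, Wnt3, which acts through β-catenin in the early embryo, was at 1.10 and 0.781 CPM in the -OHT and at 23.7 and 25.3 CPM in the +OHT Parental libraries (log2 fold change 4.47 ± 0.40 (SE), adjusted p = 1.6e-07). Wnt5a, a ligand of the β-catenin-independent branches, was at 0.157 and 0.446 CPM in -OHT and at 9.74 and 11.1 CPM in +OHT (4.96 ± 0.53, adjusted p = 1.2e-06). Both ligands were low in each -OHT library and the groups were far apart. Wnt7a, known for its role in limb patterning, was at 0.314 and 0.558 CPM against 7.14 and 9.67 CPM (4.09 ± 0.56, adjusted p = 1.6e-05). Wnt7b, which acts in lung and placental development, was at 0.706 and 0 CPM against 11.2 and 9.87 CPM (4.50 ± 0.70, adjusted p = 6.3e-05). Wnt16 was at 0.706 and 0.335 CPM against 12.7 and 9.36 CPM (4.12 ± 0.56, adjusted p = 1.5e-05). In these 3 as well, every +OHT library was above every -OHT library. Wnt9a was at 3.30 and 1.34 CPM in -OHT and 14 and 16.5 CPM in +OHT (2.48 ± 0.40, adjusted p = 9.9e-05), and Wnt6 at 0.863 and 0.892 CPM against 5.29 and 5.35 CPM (2.39 ± 0.55, adjusted p = 0.0022).

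Ligands without a count in the -OHT Parental libraries were counted in both +OHT libraries. Their fold change is given as a lower bound, with 3 counts over the -OHT group as the floor. It takes the +OHT counts as observed and uses library totals, so it covers counting error of the -OHT group only. Wnt2 had 52 and 54 counts in the +OHT libraries, at least 37.4-fold higher (adjusted p = 5.4e-05). Wnt3a, the ligand most used to activate β-catenin in culture, had 40 and 32 counts, at least 25.4-fold higher (adjusted p = 4.1e-05). Wnt1, a midbrain patterning ligand, had 27 and 41 counts, at least 24.0-fold higher (adjusted p = 1.0e-04). All of these groups were apart. Wnt9b, which acts in kidney development, had 27 and 28 counts, at least 19.4-fold higher (adjusted p = 4.5e-04). Wnt10b had 19 and 27 counts, at least 16.2-fold higher (adjusted p = 2.6e-04). Wnt4, a ligand of kidney and gonad development, went from 1 and 2 counts to 26 and 33, a ratio of 20.8 (95% counting interval 6.78 to 104, adjusted p = 8.0e-04).

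The weakest of the 16 ligand calls were Wnt2b, Wnt10a and Wnt8b. Wnt10a was at 0.471 and 0.446 CPM in -OHT and 2.87 and 3.39 CPM in +OHT (log2 fold change 2.55 ± 0.65, adjusted p = 0.0046). Wnt2b was at 0.235 and 0.223 CPM against 1.11 and 2.47 CPM (2.7 ± 0.78, adjusted p = 0.011), a call lost without +OHT replicate 2 (2.01), -OHT replicate 1 (2.67) or -OHT replicate 2 (2.68). Wnt8b was at 0.392 and 0 CPM against 2.23 and 0.925 CPM (2.59 ± 0.93, adjusted p = 0.037). Its call was lost with DESeq2, without +OHT replicate 1 (1.86) and without -OHT replicate 2 (1.79). The 3 remaining ligands were not called. Wnt8a was at 3 and 4 counts in -OHT and 12 and 11 in +OHT (adjusted p = 0.19). Wnt11, a β-catenin-independent ligand, was at 5.41 and 3.35 CPM against 12.6 and 9.97 CPM (1.16 ± 0.34, adjusted p = 0.013), under the fold threshold. Wnt5b, the ligand with the highest level per length in untreated cells, was at 10.0 and 13.2 CPM against 10.0 and 9.46 CPM (-0.45 ± 0.29, adjusted p = 0.24), a difference that did not pass the test.

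The receptors gave 1 call in each direction. Fzd2, a receptor for WNT5A and WNT3A among others, was at 1.41 and 1.00 CPM in the -OHT and 11.6 and 10.2 CPM in the +OHT Parental libraries (log2 fold change 2.94 ± 0.38, adjusted p = 9.3e-06). Fzd5 went the other way, from 60.3 and 56.3 CPM to 23.3 and 19.9 CPM (-1.63 ± 0.21, adjusted p = 8.4e-06). Fzd5 was the only gene of the 38 called lower in this comparison, and its groups were far apart. Its exons share 17.8% of their length with Gm38058, and counting without strand cannot separate the 2. Fzd10 was at 22.8 and 22.4 CPM against 13.2 and 13.4 CPM (-0.97 ± 0.22, adjusted p = 0.002) and Fzd3, a receptor of the planar polarity branch, at 21.3 and 12 CPM against 46.0 and 38.7 CPM (1.14 ± 0.27, adjusted p = 0.0026). Both passed the adjusted p and missed the fold threshold. Fzd7, the receptor best known in ESC self-renewal, was at 17.3 and 13.9 CPM against 18.4 and 14.2 CPM (-0.14, adjusted p = 0.75), with overlapping groups. The other 5 receptors were not called, with log2 fold changes from 0.42 (Fzd8) to 2.38 (Fzd1) and adjusted p from 0.058 to 0.77.

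Among the inhibitors, Wif1 was at 1.26 and 1.56 CPM in the -OHT and 22.5 and 17.0 CPM in the +OHT Parental libraries (log2 fold change 3.62 ± 0.36, adjusted p = 4.0e-07). Dkk1, an LRP antagonist and itself a target of Wnt signalling, was at 0.157 and 0.223 CPM against 4.17 and 4.22 CPM (4.22 ± 0.88, adjusted p = 0.001). Sfrp5 was at 0.785 and 0.112 CPM against 5.29 and 5.35 CPM (3.23 ± 0.56, adjusted p = 1.9e-04). In all 3 the +OHT libraries lay above the -OHT libraries. Sfrp2 was at 6.36 and 6.36 CPM against 27.5 and 28.2 CPM (1.93 ± 0.25, adjusted p = 8.0e-06). Its exons share 16.1% of their length with Gm26771. Frzb went from 1 and 0 counts to 6 and 26, a ratio of 33.9 (counting interval 5.66 to 1379, adjusted p = 0.01), and its call was lost without +OHT replicate 2 or -OHT replicate 2. Dkk3, a divergent DKK protein, was at 11.1 and 9.59 CPM against 35.0 and 30.9 CPM (1.47 ± 0.25, adjusted p = 1.3e-04), just under the fold threshold. Sfrp1, the most abundant of the 38, was at 90.6 and 88.2 CPM against 79.6 and 59.6 CPM (-0.56 ± 0.20, adjusted p = 0.033), and Sfrp4 gave -0.29 (adjusted p = 0.53). Dkk2 had 1 and 0 counts in -OHT and 0 and 3 in +OHT and was not tested.

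In RING1B I53S cells, where OHT leaves only the inactive protein, 24 of the 38 genes were called higher with OHT and none lower, while 12.8% of all tested names were called higher. The 24 were 16 ligands, Fzd1 and Fzd2, and 6 inhibitors. The median log2 fold change of the 37 tested genes was 2.25, against 0.01 over all tested names. A set of 21 genes was called in both Parental and RING1B I53S cells. Wnt6 was called in Parental cells and gave 1.28 ± 0.51 (adjusted p = 0.067) in RING1B I53S cells. Wnt8a, Fzd1 and Dkk3 were called in RING1B I53S cells and not in Parental cells. Markers moved here too: extraembryonic endoderm markers summed to 4.51 to 4.79 CPM in -OHT and 41.5 to 47.2 CPM in +OHT (7 of 8 called), trophoblast markers to 94 to 124 and 307 to 336 CPM (4 of 8), mesoderm markers to 2.17 to 2.91 and 20.4 to 27.6 CPM (5 of 8), neuroectoderm markers to 18.4 to 31 and 63 to 71.4 CPM (4 of 8), fibroblast markers to 13.9 to 15.7 and 45.5 to 52.1 CPM (1 of 8), and pluripotency markers to 4445 to 5209 and 2983 to 3172 CPM (2 called lower).

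Wnt3 was at 1.88 and 0.722 CPM in the -OHT and 18.3 and 23.4 CPM in the +OHT RING1B I53S libraries (log2 fold change 3.82 ± 0.38, adjusted p = 9.8e-07). Wnt5a was at 1.10 and 0.542 CPM against 10.6 and 9.98 CPM (3.46 ± 0.45, adjusted p = 1.5e-05). In both, every +OHT library was above every -OHT library. Wnt7a was at 0.55 and 0.0903 CPM against 6.67 and 8.18 CPM (4.30 ± 0.57, adjusted p = 1.8e-05), Wnt7b at 0.236 and 0.451 CPM against 10.1 and 6.83 CPM (4.43 ± 0.71, adjusted p = 1.3e-04), and Wnt9a at 2.36 and 1.53 CPM against 12 and 18.6 CPM (2.82 ± 0.41, adjusted p = 4.6e-05). Wnt16 was at 1.18 and 0.271 CPM against 9.19 and 6.83 CPM (3.25 ± 0.53, adjusted p = 1.5e-04), Wnt10a at 0.314 and 0.361 CPM against 3.91 and 3.15 CPM (3.18 ± 0.66, adjusted p = 0.0014), and Wnt8b at 0.157 and 0.271 CPM against 1.03 and 2.61 CPM (2.92 ± 0.92, adjusted p = 0.022). None of these ligands overlapped between groups. Wnt2 had 0 counts in both -OHT libraries and 49 and 76 in +OHT, at least 50.0-fold higher (adjusted p = 3.8e-05). Genes with 1 or 2 counts over the -OHT group are given by their ratio with its counting interval. Wnt9b went from 0 and 1 counts to 30 and 36, a ratio of 79.3 (13.7 to 3177, adjusted p = 5.8e-04), and Wnt10b from 1 and 0 to 35 and 29, a ratio of 76.9 (13.3 to 3083, adjusted p = 2.2e-04). Wnt1 went from 0 and 1 counts to 11 and 26, a ratio of 44.4 (7.5 to 1802, adjusted p = 0.0015), and Wnt3a from 1 and 1 to 22 and 33, a ratio of 33.0 (8.72 to 280, adjusted p = 3.6e-04). All 4 ligands stood close to 0 without OHT. Wnt4 went from 2 and 0 counts to 24 and 30, a ratio of 32.4 (8.55 to 275, adjusted p = 5.2e-04), Wnt8a from 0 and 1 to 11 and 15, a ratio of 31.2 (5.13 to 1280, adjusted p = 0.0072), and the inhibitor Frzb from 1 and 0 to 6 and 18, a ratio of 28.8 (4.70 to 1185, adjusted p = 0.021). All of these had more counts in each +OHT library than in either -OHT library. Dkk2, not tested, went from 0 counts to 5 and 2, at least 2.80-fold higher with no test.

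Wif1 was at 2.91 and 3.70 CPM in the -OHT and 12.8 and 14.7 CPM in the +OHT RING1B I53S libraries (log2 fold change 1.90 ± 0.32, adjusted p = 2.0e-04). Sfrp5 was at 0.393 and 0.361 CPM against 9.31 and 8.99 CPM (4.40 ± 0.57, adjusted p = 1.4e-05), Sfrp2 at 8.72 and 7.67 CPM against 32.4 and 32.1 CPM (1.82 ± 0.24, adjusted p = 2.0e-05), and Fzd2 at 2.67 and 1.90 CPM against 11.6 and 11.5 CPM (2.17 ± 0.35, adjusted p = 1.4e-04). The groups of all 4 were apart. Fzd5 was at 62.4 and 57.0 CPM against 36.9 and 23.0 CPM (-1.17 ± 0.21, adjusted p = 3.2e-04), under the fold threshold. Several of these calls rested on single libraries or on the test. Dkk3 was at 11.2 and 10.2 CPM against 30.6 and 39 CPM (1.55 ± 0.24, adjusted p = 1.1e-04) and gave 1.27 without +OHT replicate 2. Dkk1 was at 0.314 and 0.451 CPM against 0.804 and 3.51 CPM (2.37 ± 0.80, adjusted p = 0.033) and gave 0.82 without that library. Its call was also lost without either -OHT replicate (2.07 and 2.69). Fzd1 was at 1.1 and 0 CPM against 3.1 and 2.97 CPM (2.25 ± 0.77, adjusted p = 0.036) and gave 1.34 without -OHT replicate 2. The Fzd1 call was also lost without either +OHT replicate (2.29 and 2.20). In Dkk3, Dkk1 and Fzd1 the groups were apart with all libraries in. Wnt2b was at 1.41 and 0.542 CPM against 2.64 and 4.4 CPM (1.70 ± 0.60, adjusted p = 0.042) and gave 1.18 and 1.22 in 2 of its leave-one-out fits. Wnt8a lost its call without -OHT replicate 1 (3.48), Frzb and Wnt8b lost theirs in 3 leave-one-out fits each, and the calls of Wnt2b, Wnt8b, Fzd1, Dkk1 and Frzb were lost with DESeq2.

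In RING1B WT cells, which keep an active RING1B after OHT, 2 of the 38 genes were called higher and none lower, while 1.34% of all tested names were called higher. These were Wnt3, from 0.921 and 0.399 CPM to 5.02 and 5.53 CPM (log2 fold change 2.89 ± 0.46, adjusted p = 0.0028), and Wnt9a, from 1.13 and 0.698 CPM to 4.32 and 6.63 CPM (2.48 ± 0.48, adjusted p = 0.0097). Both lie on chromosome 11, which held 10.7% of all names called higher here and 8.1% of names tested. The Wnt3 call was lost without -OHT replicate 2 (2.45), as was that of Wnt9a (2.21), which was also lost without +OHT replicate 2 (2.13). The median over the 37 tested genes was 0.72 (0.71 with genes at 0 counts set to their bound), against 0.02 over all tested names. By role the fitted median was 1.53 for ligands, of which 2 of 19 were called, 0.05 for receptors and 0.77 for inhibitors. The ligand median uses fitted values for genes at 0 counts in -OHT, among them Wnt2 (2 and 12 counts in +OHT) and Wnt10b (6 and 6). Fzd5 was at 51.4 and 60.0 CPM against 54.5 and 58.4 CPM (-0.07 ± 0.20, adjusted p = 0.9), Sfrp2 at 11.8 and 8.17 CPM against 9.35 and 9.21 CPM (-0.19 ± 0.25, adjusted p = 0.78), and Wif1 at 1.53 and 1.5 CPM against 2.61 and 2.7 CPM (0.72 ± 0.39, adjusted p = 0.39). The first 2 overlapped between groups and Wif1 did not. Extraembryonic endoderm markers, 3.49 to 4.40 CPM in -OHT, summed to 9.25 to 13.1 CPM in +OHT RING1B WT cells (0 of 8 called), trophoblast markers to 59.4 to 75 and 122 to 155 CPM (2 of 8), and pluripotency markers to 4441 to 4974 and 4535 to 4678 CPM. Mesoderm markers summed to 1.4 to 2.87 and 5.63 to 7.25 CPM, neuroectoderm markers to 13.3 to 21.7 and 27 to 30.7 CPM, and fibroblast markers to 9.17 to 11.5 and 20.4 to 20.6 CPM, with 0 of 8 called in each.

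**Figure D2:**
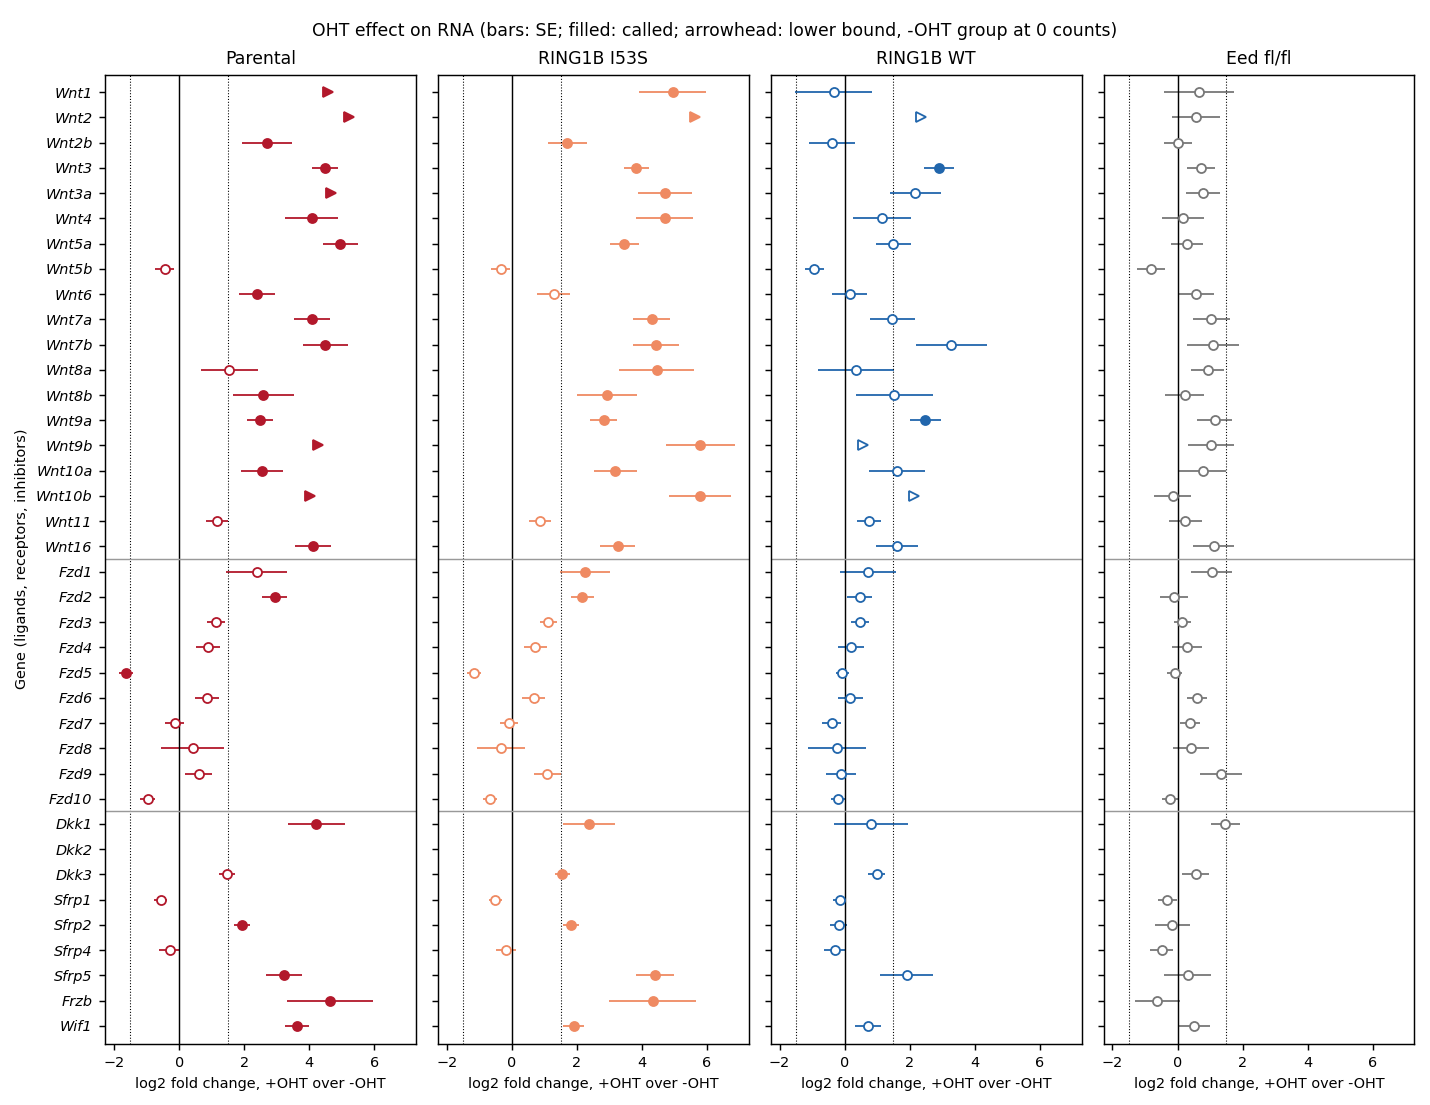
Log2 fold change with OHT of each gene (± SE) in Parental, RING1B I53S, RING1B WT and Eed fl/fl cells, with filled points for called genes and arrowheads for lower bounds where the -OHT group had 0 counts. Filled points number 23 in Parental, 24 in RING1B I53S, 2 in RING1B WT and 0 in Eed fl/fl cells, and Fzd5 in Parental cells is the only one on the negative side.

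Direct comparisons between the lines bear on whether WT and I53S protein differ, and share the libraries described above. With OHT, 15 of the 38 genes were called lower in RING1B WT than in Parental cells (10 ligands, Fzd2, Dkk1, Sfrp5, Frzb and Wif1), against 7.62% of all tested names, and none was called higher. Wif1 differed by -2.78 ± 0.33 (adjusted p = 2.0e-05), Wnt3 by -2.11 ± 0.34 (adjusted p = 2.7e-04) and Wnt5a by -2.39 ± 0.42 (adjusted p = 6.4e-04). Fzd5 was higher in RING1B WT by 1.49 ± 0.21 (adjusted p = 9.4e-05), just under the fold threshold. With OHT, 16 genes were called higher in RING1B I53S than in RING1B WT cells (11 ligands, Fzd2, Fzd9, Sfrp2, Sfrp5 and Wif1), against 6.02% of all, and none lower. In that comparison Sfrp5 differed by 3.30 ± 0.53 (adjusted p = 5.5e-04), Wnt5a by 2.34 ± 0.42 (adjusted p = 0.0012) and Wnt3 by 1.85 ± 0.34 (adjusted p = 0.0013). Without RING1B WT +OHT replicate 1 the 15 became 7 and the 16 became 6.

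For RING1B I53S against Parental cells after OHT, 0 of the 38 genes were called by edgeR, 0 had an unadjusted p under 0.05 and DESeq2 called 0, with a median log2 difference of 0.13, and 0.160% of all tested names were called in either direction. Before OHT, 0 of the 38 were called by edgeR or DESeq2 for RING1B WT against Parental (7 at an unadjusted p under 0.05; 0.0606% of all names called) and 0 for RING1B I53S against Parental (4 at an unadjusted p under 0.05; 0.154% of all). The OHT effect itself differed between RING1B WT and Parental cells for 5 genes in the lower direction (Wnt1, Wnt5a, Fzd2, Sfrp2 and Wif1), against 1.10% of all, and for Fzd5 in the higher direction, against 0.435% of all. Sfrp2 differed by -2.12 ± 0.35 (adjusted p = 0.0024), Wif1 by -2.90 ± 0.54 (adjusted p = 0.0059) and Fzd5 by 1.56 ± 0.29 (adjusted p = 0.0063). Between RING1B I53S and Parental cells no OHT effect differed by edgeR or DESeq2, for 0 of the 38 genes and 0% of all names, and 1 of the 38, Wif1 (-1.72 ± 0.48, adjusted p = 1), had an unadjusted p under 0.05.

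In Eed fl/fl cells, which lose PRC2 activity with OHT, edgeR, DESeq2 and limma called 0 of the 38 genes, and 1, Dkk1, had an unadjusted p under 0.05. Only 2 of 25170 tested names (0.00795%) were called higher by edgeR, which did not call the deleted gene Eed either. A count of 0 in this fit therefore does not show that these genes were unchanged. Dkk1 was at 1.69 and 3.22 CPM in -OHT and 7.88 and 7.33 CPM in +OHT (log2 fold change 1.47 ± 0.45, adjusted p = 0.73). With the replicate number as a block the count was also 0, while replicate differences of the -OHT and +OHT groups correlated at 0.411 across names. Whether a number marks the same clone in both groups is not given in the sources used here. Without -OHT replicate 2, the calls became 3, Wnt7a, Wnt7b and Wnt9b. Wnt9b and Wnt3a stood higher in replicate 2 than in replicate 1 in both groups: Wnt9b was at 0.635 and 4.89 CPM in -OHT and 2.98 and 9.92 CPM in +OHT, and Wnt3a at 2.33 and 5.84 CPM against 4.06 and 12.4 CPM. Their groups overlapped. Wnt3 was at 3.07 and 6.79 CPM against 7.28 and 11.2 CPM (0.72 ± 0.42, adjusted p = 0.83), apart between groups, and Fzd5 at 41.6 and 37.2 CPM against 39.6 and 45.9 CPM (-0.09 ± 0.24, adjusted p = 0.96). Sfrp1 was at 297 and 233 CPM against 249 and 240 CPM (-0.32 ± 0.29, adjusted p = 0.86). The median over the tested genes was 0.41, against 0.08 over all tested names. Before OHT, every ligand but Wnt5b (10.6 against 11.6 CPM) had a higher mean level in Eed fl/fl than in Parental cells. Wnt3a was at 4.09 against 0 CPM, Wnt4 at 4.95 against 0.151 CPM and Wnt9b at 2.76 against 0 CPM. This difference in starting level was not tested. In a single fit of all 16 libraries, chosen after seeing the data, the OHT effect was lower in Eed fl/fl than in Parental cells for 13 genes, against 3.96% of all 27663 names tested in that fit, and higher for Fzd5, against 0.690%. Wnt3 differed by -3.66 ± 0.59 (adjusted p = 1.6e-04), Wnt5a by -4.58 ± 0.79 (adjusted p = 3.7e-04) and Fzd5 by 1.63 ± 0.30 (adjusted p = 7.0e-04). Line and library complexity cannot be told apart in that difference. Trophoblast markers summed to 149 to 181 CPM in -OHT and 276 to 313 CPM in +OHT Eed fl/fl cells, and neuroectoderm markers to 21.1 to 28 and 35.1 to 46.1 CPM. Pluripotency markers summed to 4826 to 4949 and 4767 to 4800 CPM, and the other marker lists overlapped between groups. No marker was called.

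Other genes of the pathway were counted by list. Over all tested names, 15.1% were called higher in Parental, 12.8% in RING1B I53S and 1.34% in RING1B WT cells, and 1.83% were called lower in Parental cells. R-spondins and their LGR receptors amplify Wnt signals, and their list of 9 genes also holds Rnf43 and Znrf3. Of the 9, 6 were called higher in both Parental and RING1B I53S cells (Lgr5, Lgr6, Rspo1, Rspo2, Rspo3 and Rspo4) and 0 in RING1B WT and Eed fl/fl cells. Lgr4, Rnf43 and Znrf3 were called in none of these lines. Rspo4 was at 3.69 and 1.45 CPM in -OHT and 25.8 and 30.1 CPM in +OHT Parental cells (log2 fold change 3.20 ± 0.38, adjusted p = 3.4e-06), Lgr5 at 0.157 and 0.223 CPM against 7.79 and 4.42 CPM (4.76 ± 0.84, adjusted p = 2.2e-04) and Lgr6 at 1.57 and 0.558 CPM against 9.83 and 7.51 CPM (2.76 ± 0.49, adjusted p = 2.2e-04). These groups were apart. Of 8 tested genes for Wnt secretion and other modulators, Dkkl1 (2.61 ± 0.28, adjusted p = 9.4e-07) and the DKK receptor Kremen2 (1.93 ± 0.50, adjusted p = 0.005) rose, and Notum, which inactivates Wnt by removing its lipid, fell from 14.8 and 19 CPM to 4.54 and 3.80 CPM (-2.21 ± 0.30, adjusted p = 1.2e-05). Of 9 canonical target genes 4 rose (Nkd1, Lgr5, T and Cdx1), with Nkd1, a feedback inhibitor, at 3.29 ± 0.43 (adjusted p = 1.0e-05) and Cdx1 at 2.39 ± 0.41 (adjusted p = 1.5e-04). Axin2, Sp5, Tnfrsf19, Ccnd1 and Lef1 of that list were not called. Lgr5 is also counted in the R-spondin list, and T among the mesoderm markers. Apc2 (2.16 ± 0.41) was the 1 called of 11 cytoplasmic transducers, Bcl9l (2.03 ± 0.26), a β-catenin cofactor, the 1 of 9 nuclear effectors, Celsr2 (1.66 ± 0.28) the 1 of 7 planar polarity genes, and 0 of 6 coreceptors were called. None of these 4 lists exceeded the share over all names. In RING1B I53S cells Dkkl1, Apc2, Bcl9l, Ror1 of the coreceptors, and 3 canonical targets (Nkd1, Lgr5 and T) were called higher, and in RING1B WT and Eed fl/fl cells 0 genes of these lists were called.

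Of the 38 genes, 27 had a promoter sequence in the RefSeq table used (mouse GRCm38.p6), covering 250 bases before to 50 bases after the start. The dinucleotide CG, which is its own reverse complement and is the base composition most associated with Polycomb promoters in ESCs, occurred a median of 27 times per 300 bases in them (6 to 58), against 14 in 16521 coding promoters (quartiles 4 and 25). At least 10 CG were found in 25 of the 27, and in 59.2% of coding promoters. Wnt5a, Wnt7b, Wnt8a, Wnt10a, Fzd2, Fzd3, Fzd6, Fzd8, Dkk3, Sfrp1 and Sfrp4 had no entry. The stretch up to the annotated start of 5 genes is printed 5′ to 3′ on the gene's strand, with each CG in capitals, because their RNA and peaks are contrasted below. Wnt3 (chr11:103773925-103774149, plus strand) and its neighbour Wnt9b (chr11:103749822-103750071, minus strand) start 24.3 kb apart. Wnt8b (chr19:44493222-44493471, plus strand) was the poorest in CG of the 27. Fzd5 (chr1:64737752-64738000, minus strand) was called lower, and Wif1 (chr10:121033754-121033959, plus strand) was called higher without an H2AK119ub1 or RING1B peak.
Wnt3: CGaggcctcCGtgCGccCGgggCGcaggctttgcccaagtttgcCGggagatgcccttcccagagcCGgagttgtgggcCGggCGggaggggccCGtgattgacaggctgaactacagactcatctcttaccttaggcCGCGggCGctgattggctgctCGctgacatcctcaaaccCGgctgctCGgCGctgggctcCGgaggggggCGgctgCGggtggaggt
Wnt9b: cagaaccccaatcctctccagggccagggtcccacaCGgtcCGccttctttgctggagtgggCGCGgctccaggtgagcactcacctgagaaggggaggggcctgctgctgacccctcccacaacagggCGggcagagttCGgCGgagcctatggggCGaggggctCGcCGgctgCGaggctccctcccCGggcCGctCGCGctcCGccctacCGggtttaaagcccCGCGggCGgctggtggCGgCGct
Wnt8b: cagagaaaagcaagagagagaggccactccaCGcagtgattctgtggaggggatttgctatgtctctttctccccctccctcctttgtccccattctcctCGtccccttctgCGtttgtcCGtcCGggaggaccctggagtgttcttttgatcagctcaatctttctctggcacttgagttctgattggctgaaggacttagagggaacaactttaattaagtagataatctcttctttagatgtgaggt
Fzd5: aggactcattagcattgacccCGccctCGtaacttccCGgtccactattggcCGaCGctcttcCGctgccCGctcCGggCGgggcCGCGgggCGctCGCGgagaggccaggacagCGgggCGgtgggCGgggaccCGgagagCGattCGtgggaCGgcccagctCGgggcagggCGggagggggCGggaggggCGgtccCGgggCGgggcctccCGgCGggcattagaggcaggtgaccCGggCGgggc
Wif1: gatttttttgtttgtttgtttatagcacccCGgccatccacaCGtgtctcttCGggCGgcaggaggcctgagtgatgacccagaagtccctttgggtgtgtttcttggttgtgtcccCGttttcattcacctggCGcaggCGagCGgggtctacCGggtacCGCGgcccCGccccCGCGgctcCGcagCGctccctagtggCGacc
The printed stretches held 20 CG in 225 bases for Wnt3, 22 in 250 for Wnt9b, 5 in 250 for Wnt8b, 31 in 249 for Fzd5 and 17 in 206 for Wif1.

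ChIP-seq peaks, called by the authors in each library separately, were counted for a gene when they lay within 2.5 kb of an annotated start site. With 1 library per condition there is no replicate check for most antibodies, and no test was made. In untreated Parental cells nearly all 38 genes carried the marks and both complexes. H2AK119ub1 peaks were found at 35 of 38 (22.7% of 21923 protein-coding names), H3K27me3 at 35 (26.7%), RING1B at 32 (17.7%), and SUZ12, a core PRC2 subunit, at 38 (28.6%). PCGF2, a subunit of canonical PRC1, was at 34 (17.2%) and CBX7, its H3K27me3 reader, at 34 (17.3%). Among PRC2 accessory proteins MTF2 was at 37 (50.3%), JARID2 at 37 (31.1%), EPOP at 35 (23.5%) and AEBP2 at 21 (4.12%). The variant PRC1 subunits PCGF6 and RYBP were at 27 (26.4%) and 17 (11.4%). The 4 input libraries whose peaks were used, all of MTF2 KO lines, had peaks at 0 of the 38. The genes without an untreated H3K27me3 peak were Fzd5, Fzd10 and Wif1, and those without H2AK119ub1 were Fzd6, Sfrp4 and Wif1.

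With OHT, RING1B and PCGF2 had no peak at these genes in Parental cells. RING1B peaks were at 0 of 38 (1.36% of coding names), PCGF2 at 0 (0.274%) and CBX7 at 2, Wnt3a and Fzd1 (0.21%). In RING1B I53S +OHT cells RING1B was at 2, Fzd2 and Fzd10 (2.74%), PCGF2 at 5 (2.31%) and CBX7 at 0 (0.105%), whereas in RING1B WT +OHT cells they were at 32 (13.3%), 31 (12.7%) and 28 (9.05%). Chromosome 11 held 82.6% of all RING1B peaks in the Parental +OHT and 66.8% in the RING1B I53S +OHT library, against 12.5% in the untreated Parental one. PCGF6 was at 13 genes in Parental +OHT (18.0%), 9 in RING1B I53S +OHT (9.23%) and 35 in RING1B WT +OHT (25.3%), and RYBP at 6 in RING1B I53S +OHT (3.09%) and 11 in RING1B WT +OHT (4.57%).

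H2AK119ub1 peaks were at 28 of 38 genes in Parental +OHT (20.3% of coding names), 25 in RING1B I53S +OHT (11.2%) and 34 in RING1B WT +OHT (27.3%). The 27 genes with a peak both before and after OHT in Parental cells had a median length, summed over all peaks of a gene, of 4563 bp before and 3132 bp after, with 20 of 27 shorter. Their median peak score (-log10 p of the peak caller) was 34.8 before and 36.4 after, lower at 13 of 27. In RING1B I53S +OHT the summed length was 1920 bp against 5104 bp in untreated Parental cells over 25 genes, 21 of them shorter, and the score 27 against 35.3, lower at 19. In RING1B WT +OHT the length was 4667 against 4158 bp in untreated Parental cells over 34 genes, 9 of them shorter, and the score 51.5 against 31.8, lower at 2. Neither line had an untreated library of this mark, so line and OHT cannot be told apart in these comparisons. Wnt2, Wnt8a, Wnt10a, Dkk1, Dkk2, Dkk3, Sfrp2 and Frzb had a peak in untreated and none in +OHT Parental cells. Peak calls, lengths and scores depend on the depth and signal of each library, which was not equalised here. The authors' spike-in scaling entered their signal tracks and not these peak calls, which therefore do not measure how much of the mark remained. From western blots and spike-in-scaled signal, the paper reported that H2AK119ub1 was completely lost in RING1B I53S cells with OHT.

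SUZ12 was at 32 genes in Parental +OHT (21% of coding names), 25 in RING1B I53S +OHT (12.8%) and 35 in RING1B WT +OHT (23.7%). Over the 32 genes with a SUZ12 peak before and after OHT in Parental cells, median summed length went from 3967 to 2256 bp, 31 of 32 were shorter, and the median score went from 351 to 53.8. In RING1B I53S +OHT the median length was 1763 bp against 4362 bp in untreated Parental cells over 25 genes, all 25 shorter, and the score 30 against 386. In RING1B WT +OHT the length was 3167 against 3878 bp in untreated Parental cells over 35 genes, 31 of them shorter, and the score 188 against 338, lower at 35 of 35. SUZ12 peaks were thus shorter and lower in score at most shared genes in all 3 lines with OHT than in untreated Parental cells. RING1B I53S and RING1B WT cells had no untreated SUZ12 or H3K27me3 library, so line and OHT cannot be told apart there. H3K27me3 was at 29 genes in Parental +OHT (21.5%), 24 in RING1B I53S +OHT (18.0%) and 33 in RING1B WT +OHT (26.3%). Its summed length was shorter than in untreated Parental cells at 27 of 29, 21 of 23 and 22 of 32 shared genes. Wnt8a, Fzd6, Dkk3, Sfrp1, Sfrp2 and Sfrp4 had an H3K27me3 peak in untreated and none in +OHT Parental cells.

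Of the PRC2 accessory proteins, JARID2, which binds H2AK119ub1, was at 28 genes after 48 h and 15 after 72 h of OHT in Parental cells (10.7% and 4.9% of coding names), at 17 after 48 h and at 17 and 5 in 2 libraries after 72 h in RING1B I53S cells (3.8%, 3.79% and 1.52%), and at 34 in each RING1B WT +OHT library (18.0% to 18.3%). Untreated RING1B I53S and RING1B WT cells had it at 34 and 35 genes (19.4% and 21.3%). MTF2 was at 36 after 48 h and 32 after 72 h in Parental cells (28.5% and 24.8%), at 31 after 48 h and at 26 and 30 after 72 h in RING1B I53S cells (29.5%, 11.3% and 25.2%), and at 34 to 37 in RING1B WT +OHT cells (24.7% to 30.3%). The replicate libraries of RING1B I53S cells thus differed from each other in both proteins. EPOP was at 24, 20 and 35 genes in Parental, RING1B I53S and RING1B WT +OHT cells (10.1%, 11.1% and 23.6%), and AEBP2 at 0, 0 and 22 (0.0593%, 0.0775% and 4.32%).

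In Parental MTF2 KO cells fewer genes had PRC2 peaks with OHT than without. RING1B I53S and RING1B WT MTF2 KO cells had no untreated library, so line and OHT cannot be told apart there. H3K27me3 was at 24 of the 38 in untreated Parental MTF2 KO cells (11.3% of coding names), and with OHT at 2 in Parental (Wnt9a and Wnt9b, 0.598%), 3 in RING1B I53S (Wnt7a, Wnt9a and Wnt9b, 2.42%) and 19 in RING1B WT MTF2 KO cells (6.98%). SUZ12 was at 29 in untreated Parental MTF2 KO cells (10.7%). With OHT it was at 9 in Parental (4.22%), 1 in RING1B I53S (Wnt2, 1.32%) and 29 in RING1B WT MTF2 KO cells (12%). Chromosome 11 held 52.7% to 67.2% of all peaks in the Parental and RING1B I53S MTF2 KO libraries with OHT, and Wnt3, Wnt3a, Wnt9a, Wnt9b and Fzd2, all on that chromosome, made up 5 of the 9 genes with SUZ12.

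Individual genes differed. At Wnt3 the H2AK119ub1 peak spanned 15192 bp in untreated Parental cells, 5568 bp in Parental +OHT, and 11486 bp in RING1B WT +OHT, and in RING1B I53S +OHT 2 peaks covered 3557 bp, the longer of them 1793 bp. Its H3K27me3 peak spanned 21289, 7224, 5064 and 13820 bp in untreated Parental, Parental +OHT, RING1B I53S +OHT and RING1B WT +OHT cells, and its SUZ12 score there was 441, 53.9, 26.1 and 227. RING1B at Wnt3 spanned 5392 bp untreated and 4679 bp in RING1B WT +OHT, with no peak in Parental +OHT or RING1B I53S +OHT cells. Wnt5b, whose RNA was not called, had a SUZ12 score of 812 in untreated cells, at percentile 99.6 of all peaks of that library. This strong peak stood beside RNA of 12.7 TPM, counted over the whole gene. Wnt5b has 4 annotated start sites, and whether the peak and the RNA belong to the same one was not tested. Fzd5 had an H2AK119ub1 peak (score 33.5 in untreated Parental cells, then 60.7, 66.2 and 60.5 in Parental, RING1B I53S and RING1B WT +OHT) without an untreated H3K27me3 or RING1B peak. Fzd10 was alike, with H2AK119ub1 scores of 35.9, 50.3, 34.8 and 57.1. Wif1 had no H2AK119ub1 or RING1B peak in any of these libraries, a SUZ12 peak of 718 bp (score 16.2) in untreated cells alone, and short H3K27me3 peaks in RING1B I53S +OHT (839 bp) and RING1B WT +OHT (930 bp).

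**Figure D3:**
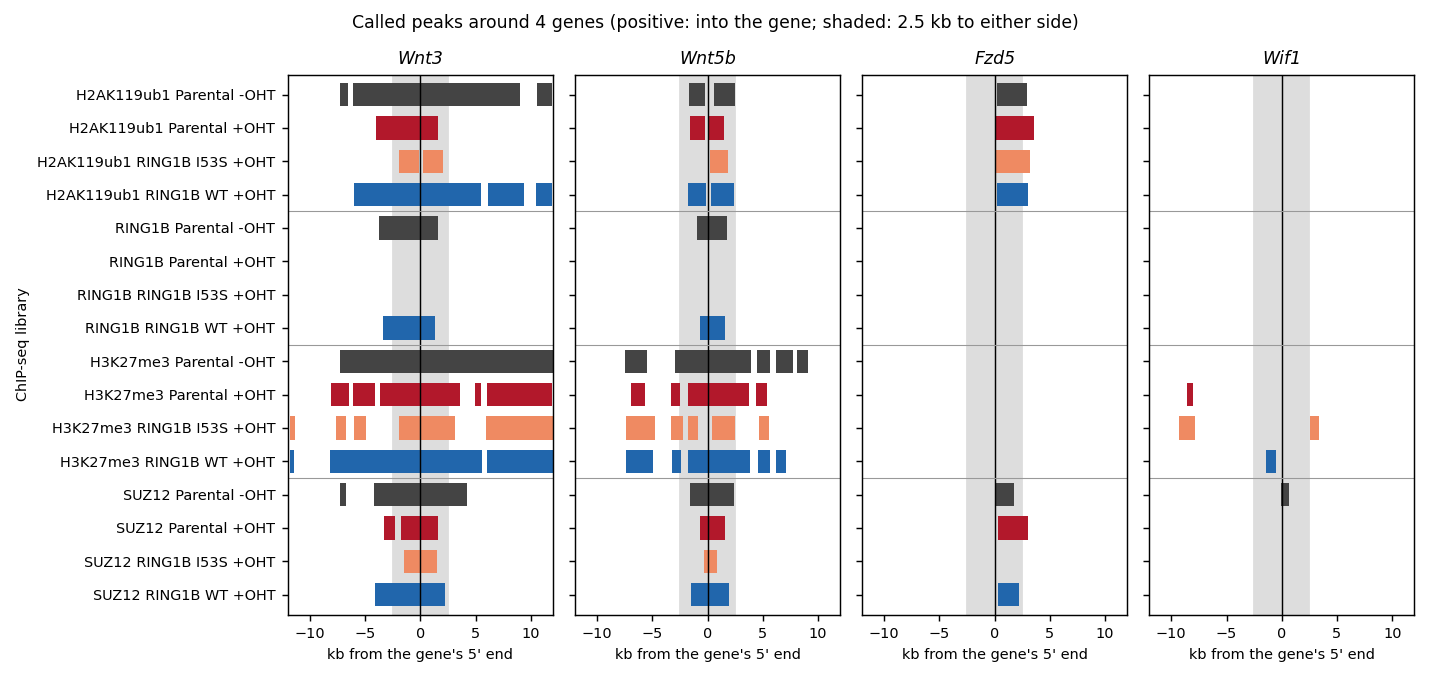
Extent of H2AK119ub1, RING1B, H3K27me3 and SUZ12 peaks around the start of Wnt3, Wnt5b, Fzd5 and Wif1 (distance from the start in kb) in untreated Parental, Parental +OHT, RING1B I53S +OHT and RING1B WT +OHT cells. Bars at Wnt3 are long in untreated and RING1B WT +OHT cells (H2AK119ub1 15192 and 11486 bp) and short in RING1B I53S +OHT cells (2 peaks, 3557 bp in all), and Wif1 carries few and short bars.

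RNA calls were set beside untreated peaks. Of the coding names tested in Parental cells, 42.8% of those with an untreated H3K27me3 peak were called higher with OHT and 4.71% of those without. Of the 38 genes, 21 of the 34 tested with a peak were called higher, and of the 3 without, Wif1 was called higher and Fzd5 lower. For RING1B the shares were 46.9% with and 8.43% without a peak, and 21 of 31 tested genes with a peak were called higher. In RING1B WT cells, 4.19% of coding names with an H3K27me3 peak were called higher. Pairs of neighbouring ligands, Wnt1 and Wnt10b, Wnt3 and Wnt9b, Wnt3a and Wnt9a, and Wnt6 and Wnt10a, start 11.7 to 24.3 kb apart. All 8 were called higher in Parental cells, and no peak was shared between the windows of 2 genes.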

How the data were processed

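RNA-seq (SMART-seq2) measured 16 libraries of mouse ESC lines, and peak lists of 74 ChIP-seq libraries were analysed (69 with an antibody and condition, 4 inputs and 1 with no stated treatment), with 9 further inputs not used here. According to the study's methods, the authors aligned RNA reads with STAR 2.7 to mm10 (GRCm38) without multimapping reads and counted them with featureCounts, without strand, over GENCODE gene names; the deposited raw values are counts per gene. ChIP-seq reads were aligned with Bowtie 1.2.2 and peaks called per library with MACS2 2.1.1; the deposited score is the caller's -log10 p. The authors' normalized tables and comparison tables (fold changes and p-values) were not used.

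Counts were fitted with edgeR 4.0.16 (TMM, filterByExpr, quasi-likelihood; R 4.3.3), 12 libraries together and 4 Eed fl/fl libraries apart, adjusted over all names tested (18154 and 25170), with calls at adjusted p under 0.05 and a log2 fold change of at least 1.5. Totals of 6957248 to 12743460 counts limit the precision of low genes. Intervals cover counting error only, and floors that of the -OHT group only. Both use library totals without TMM. CPM divide counts by the library total; TPM use exon lengths. The script was tested on simulated data. Alternatives were DESeq2 1.42.0, limma 3.58.1, other normalization, filters, thresholds and fits, a replicate block, leaving out each replicate, and other peak scores and windows. Full statistics were given for every gene called in an OHT effect, levels for the 5 highest genes, and the 3 lowest adjusted p per other pathway list. The members and lists were chosen with earlier results of these data known. One RYBP library with no stated treatment entered no comparison. Labels give 72 h for all libraries, while the 48 h of 6 MTF2 and JARID2 libraries come from their titles.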

Additional observations from a re-analysis of the deposited data

Results flagged for a closer look

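Of the 38 genes, 6 responded differently to OHT in RING1B WT than in Parental cells by edgeR's test of the difference itself. Sfrp2 (-2.12 ± 0.35, adjusted p = 0.0024), Wif1 (-2.90 ± 0.54, adjusted p = 0.0059), Fzd2 (-2.48 ± 0.55, adjusted p = 0.021) and Wnt5a (-3.48 ± 0.83, adjusted p = 0.032) had a smaller log2 effect in RING1B WT cells. Wnt1 gave -8.36 (adjusted p = 0.039), a value that depends on the prior count because its -OHT Parental libraries had 0 counts, and its call was lost without any 1 of the 8 libraries compared. Fzd5 gave 1.56 ± 0.29 (adjusted p = 0.0063), and was called lower in Parental cells and not in RING1B WT cells. The Wnt5a call was lost in 6 of the 8 fits that left out a library (-2.75 to -3.58), that of Fzd2 in 5 and that of Fzd5 in 3.

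In the single fit of all 16 libraries, the OHT effect differed between Eed fl/fl and Parental cells for 14 genes. Wnt3 (-3.66), Wnt4 (-3.81), Wnt5a (-4.58), Wnt7a (-2.96), Fzd2 (-2.95), Sfrp2 (-2.00), Frzb (-5.16) and Wif1 (-3.01) had a smaller effect in Eed fl/fl cells and Fzd5 (1.63) a higher one, with adjusted p from 1.6e-04 to 0.042. For Wnt1 (-7.26), Wnt2 (-7.98), Wnt3a (-7.19), Wnt9b (-6.58) and Wnt10b (-7.51), all at 0 counts in -OHT Parental cells, the size depends on the prior count. The Eed fl/fl libraries held more detected names than the others, 43762 to 46757 against 23578 to 28032, and their part in these differences was not tested. Ligand levels before OHT also differed between these lines, and the part of that was not tested either.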

How the results depend on the processing

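No result changed direction. Of 524 recomputed values of single genes, 469 kept their call and 55 lost it. The called genes numbered 23 in Parental cells, 24 in RING1B I53S, 2 in RING1B WT, 15 for RING1B WT against Parental with OHT, 16 for RING1B I53S against RING1B WT with OHT, and 6 for the response to OHT in RING1B WT minus that in Parental cells. With at least 10 counts in every library, which removes genes at or near 0 without OHT, these became 4, 3, 0, 2, 3 and 2. RING1B WT gave 5 with no filter on low counts and 0 without the genes on chromosome 11. Leaving out 1 replicate gave 20 to 24 in Parental cells, 18 to 23 in RING1B I53S, 0 to 4 in RING1B WT, 7 to 14, 6 to 14 and 2 to 5 in the same order, and 0 to 3 in Eed fl/fl cells. RING1B WT gave 4 without +OHT replicate 1, 1 without +OHT replicate 2 and 0 without -OHT replicate 2. The difference in response gave 2 without Parental +OHT replicate 2 or RING1B WT -OHT replicate 1, and 3 without Parental +OHT replicate 1 or either RING1B WT +OHT replicate. The replicate block gave 24, 24, 2, 15, 17 and 6, and 0 in Eed fl/fl cells. No label ties equal numbers to a shared culture or clone. Replicate differences correlated at 0.0011 to 0.213 between groups of the 12 libraries (0.0577 in Parental, 0.164 in RING1B I53S and 0.0369 in RING1B WT, between -OHT and +OHT), and at 0.411 in Eed fl/fl. The cause of these changes was not tested except where the filter itself removes genes. Peak counts moved with the definition. With a score of at least 20, H2AK119ub1 in RING1B I53S +OHT fell to 16 genes, RING1B in RING1B I53S +OHT to 0, H3K27me3 in MTF2 KO cells to 10 (Parental -OHT), 0 (Parental +OHT), 1 (RING1B I53S +OHT) and 7 (RING1B WT +OHT), and SUZ12 in Parental and RING1B I53S MTF2 KO +OHT cells to 0. With the start inside the peak, H2AK119ub1 was at 22 genes in untreated Parental and 11 in RING1B I53S +OHT cells, H3K27me3 at 17 in Parental +OHT and 10 in RING1B I53S +OHT, RING1B at 0 in RING1B I53S +OHT, H3K27me3 in MTF2 KO cells at 4, 0, 0 and 5 in the order above, and SUZ12 in Parental and RING1B I53S MTF2 KO +OHT cells at 3 and 0. Within 1 kb, H3K27me3 in Parental and RING1B I53S MTF2 KO +OHT cells was at 1 and 1, and within 5 kb it was at 5 in the latter and RING1B at 2 in Parental +OHT. With 500 bp covered, RING1B was at 1 in RING1B I53S +OHT. Without the genes on chromosome 11, a setting chosen after seeing the data, H3K27me3 in Parental and RING1B I53S MTF2 KO +OHT cells was at 0 and 1, RING1B in RING1B I53S +OHT at 1, and SUZ12 in Parental MTF2 KO +OHT at 4. With 2 replicates per group, ligands at 0 to 5 counts without OHT have a fold change known only as a bound or a wide interval, and single ChIP-seq libraries give no spread.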

Other observations

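The RYBP library with no stated treatment held 61 peaks, 47.5% of them on chromosome 11, and had a peak within 2.5 kb of a start site at 0 of the 38 genes.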
